A study of Mus musculus with 18 samples.

Results

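The DH interval of the mouse immunoglobulin heavy chain locus (Igh) was examined for its contacts with the intronic enhancer Eμ, as measured by 4C-seq. It was defined by position alone as every fragment end at mm10 chr12:113431025-113526025, which is 5 to 100 kb from the bait on the side of the variable (VH) segments, and no measured value was used. It held 244 of the 440025 fragment ends listed in the whole series, and 56916 of those were on chromosome 12. An end here is a stretch of 24 bp at a DpnII site, and its value is the number of reads placed there. In 4C-seq all DNA ligated to 1 bait is amplified and sequenced, so a higher share of reads at an end stands for more frequent ligation to the bait.

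The cells were CD43 negative B cells from mouse spleen, either mutant for Med1 or wild type (WT). Med1 is a subunit of Mediator, through which enhancer-bound factors act on RNA polymerase II. The genotype label reads Med1 mutant, and the titles of the mutant libraries carry Med1KO or MED1KO, with no further detail of the allele. The strain, age and number of animals are not given in the labels, and 4C-seq of this bait does not measure Med1 itself. There were 3 libraries in each of 6 groups: Med1 mutant cells after 2 days with LPS and IL4, Med1 mutant resting cells, WT cells after 2 days with LPS and IL4, WT resting cells, and, in a later deposit, Med1 mutant and WT cells after 2 days with LPS alone. Every p-value below measures the spread between libraries, since the labels do not say that these came from separate animals. LPS with IL4 directs switching to Ighg1 and Ighe, and LPS alone directs switching to Ighg3 and Ighg2b.

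In developing B cells a DH segment is first joined to a JH segment, and a VH segment is then joined to the DH-JH unit, with loss of the DNA between the joined segments on that allele. Eμ lies between the JH segments and Ighm, the gene for the μ constant region, and takes part in this recombination and in transcription of the locus. IGCR1, an element with CTCF sites between the VH and DH segments, is known to hold the enhancer's contacts to the DH side in developing B cells; its position was not analysed here. The mature B cells studied here have already rearranged the locus, so the distances given are those of the reference sequence and not of each cell's own alleles. How much of this DNA the cells retained was not measured here.

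The bait was read with the study's own pair of inverse PCR primers, shown because they fix the viewpoint of every value below; neither holds a DpnII site (GATC) or a Csp6I site (GTAC) as written. They were not placed on the genome here.
Primer 1: tctgtcctaaaggctctgaga
Primer 2: gaacacagaagtatgtgtatgga

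The RefSeq annotation (GRCm38.p6, the assembly behind mm10) did not bear out the working name of the interval, which included the JH segments. The 4 JH segments, Ighj1 to Ighj4, lay 2.49 to 3.76 kb from the bait, and Ighd4-1, the DH segment nearest to them, lay at 4.5 kb, so all 5 fell inside the 5 kb next to the bait that was left out. Inside the interval were 19 annotated genes: 9 DH segments, 9 DH pseudogene segments and Adam6b. From 20 kb outward the order was Ighd3-2 (22.2 kb from the bait), Ighd5-6, Ighd2-8, Ighd5-5, Ighd2-7 (30.7 kb), Ighd5-8, Ighd5-4, Ighd2-6, Ighd5-7, Ighd5-3, Ighd2-5 (40.0 kb), Ighd5-2, Ighd2-4, Ighd6-2, Ighd2-3, Ighd6-1 (54.1 kb) and Ighd1-1 (56.1 kb). Beyond this cluster came Adam6b, which encodes a membrane protein of the ADAM family known for its role in sperm, at 63.5 kb, and Ighd3-1 at 99.3 kb. No gene was annotated at 5 to 20 kb or at 70 to 95 kb. The nearest annotated genes past the far edge were Ighd5-1 at 101 kb, Adam6a at 118 kb and the first VH segments, the pseudogene Ighv5-1 at 147 kb and Ighv5-2 at 152 kb, so the interval held no VH segment.

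The 12 libraries of resting and LPS + IL4 cells held between 2470497 and 21074434 reads, of which 81980 to 755113 fell in the interval. No depth is known for the 6 LPS libraries, whose files list covered ends without a count. Of the 244 ends, 238 were read in at least 1 of the 12 libraries with counts and 88 in all 12, while 65 were covered in all 18. The median gap between neighbouring ends was 133 bp, and the largest was 4029 bp (113496106 to 113500135), in the stretch without genes beyond Adam6b. The ends were not independent: 148 of them formed 74 pairs 28 bp apart, on both sides of 1 DpnII site. In 32 of these pairs the higher end had more than 10 times the reads of the lower one over the 12 libraries, and in 12 pairs the 2 ends were within 2-fold of each other.

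These 12 libraries were placed in 2 sets that the labels do not name, as known from earlier results of these data. The second set held Med1 mutant replicates 2 and 3 and WT replicate 3, resting and LPS + IL4 alike. The first set held Med1 mutant replicate 1 and WT replicates 1 and 2. Given these sets, 16 ends of the interval met a rule for ends read in 1 set only (see the processing section). These ends drew 13.3% to 16.1% of all interval reads in the second set and 0.0256% to 0.0515% in the first. The rule picks ends by this contrast, so the contrast is no separate evidence for the sets. The highest of the 16 was the end at 113462320, 36.3 kb from the bait, with 0.328% to 0.580% of chromosome 12 reads in the second set and at most 0.00121% in the first. Of the 16 ends, 4 lay in the window at 5 to 10 kb and 1 lay in Ighd2-8. By the same rule no end of the interval was read in the first set alone. The second set holds 2 mutant replicates and 1 WT replicate, so genotype and set are partly mixed. Genotype values of the interval as a whole are therefore also given within sets. All 6 WT libraries with counts carry WTKO in the title but WT as genotype, and they were used as WT. For WT LPS + IL4 replicate 2 the growth protocol gives anti-CD40, not LPS, beside IL4.

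In resting and activated B cells of both genotypes, contacts did not fall steadily with distance but were highest over the far end of the DH cluster. The 5 kb window around Ighd1-1 (55 to 60 kb, chr12:113481025-113486024) took 1.88% of chromosome 12 reads on average over the 12 libraries, with a range of 1.12% to 2.47%. Here and below a share is the percentage of a library's chromosome 12 reads more than 5 kb from the bait. The neighbouring window at 50 to 55 kb, which holds Ighd6-1, took 1.44% (1.03% to 1.97%), and the window nearest to the bait, at 5 to 10 kb, took 0.488% (0.146% to 0.867%). Between the nearest window and the cluster the share was 0.139% at 10 to 15 kb and 0.0390% at 15 to 20 kb. The Ighd1-1 window was the highest of the 19 in 11 of 12 libraries and the Ighd6-1 window in 1. Together they held 35.5% to 54.7% of all interval reads, and the Ighd1-1 window stood 2.02-fold to 13.6-fold above the window nearest to the bait in 12 of 12 libraries.

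**Figure D1:**
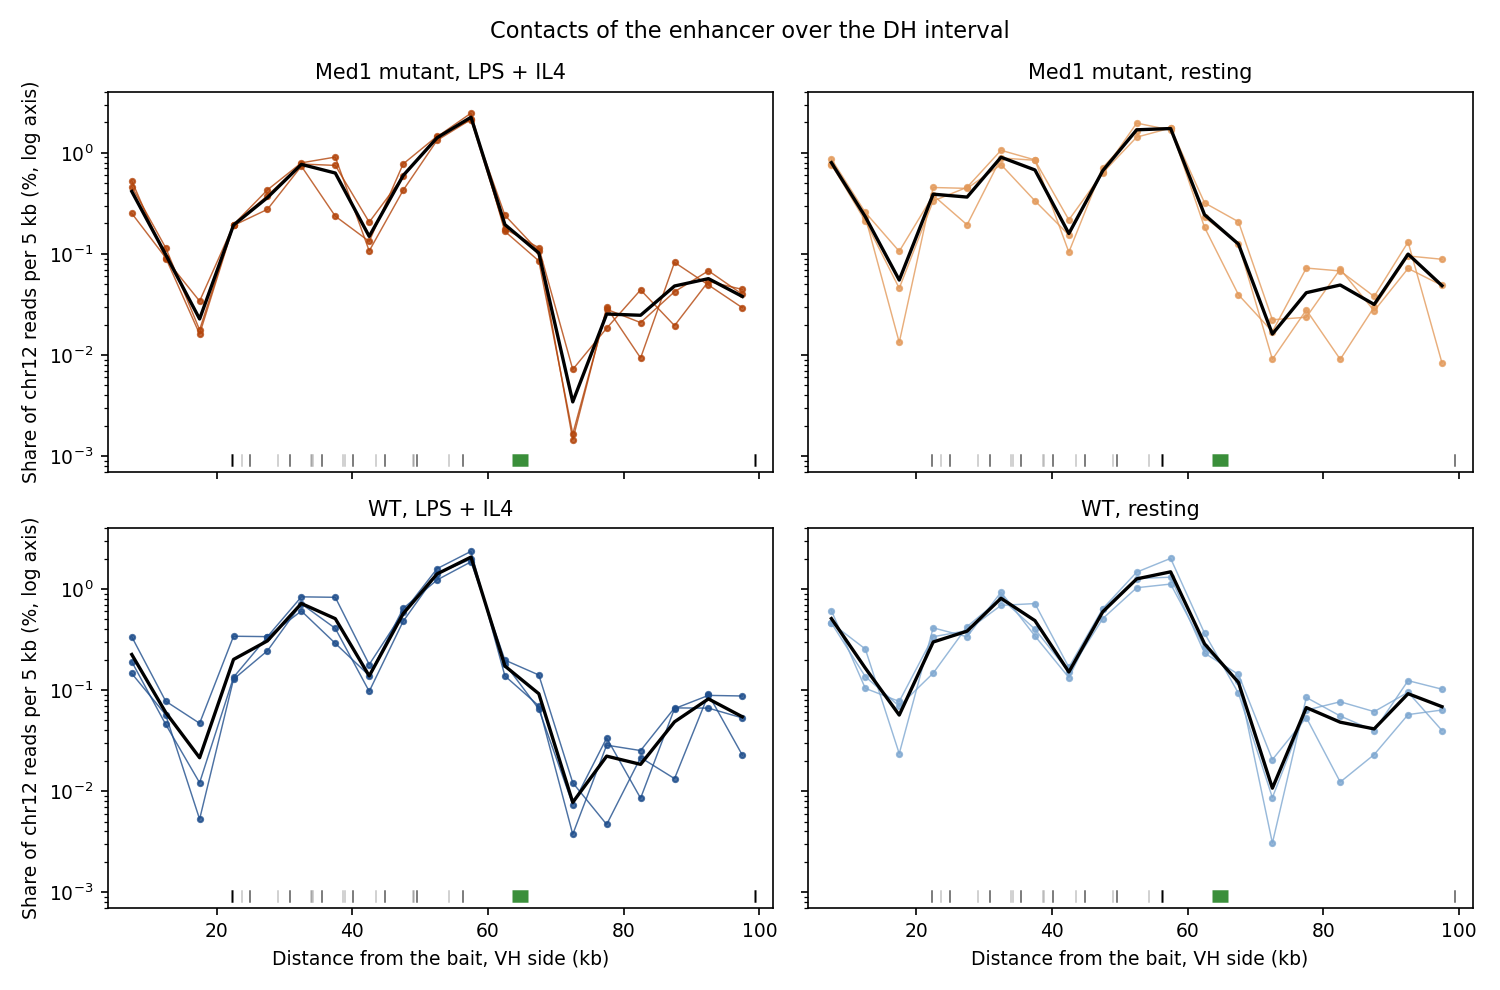
Share of chromosome 12 reads (%, log axis) in 19 windows of 5 kb against distance from the bait (kb) for 4 groups; thin lines are 3 libraries, the thick line their mean, and ticks mark DH segments (black), DH pseudogene segments (grey) and Adam6b (green). In each group the mean is highest at 55 to 60 kb, at Ighd1-1, falls in the next window and is lowest at 70 to 75 kb.

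Past Ighd1-1 the profile dropped within 1 window. At 60 to 65 kb, where most of Adam6b lies, the share was 0.225% (0.138% to 0.365%), so that the Ighd1-1 window exceeded it 4.24-fold to 17.1-fold. The window at 65 to 70 kb, with the rest of Adam6b, took 0.109%, and the window at 70 to 75 kb took 0.0095% (0.00145% to 0.0223%), the lowest of the 19, with 4 listed ends. The 4 windows without genes from 75 to 95 kb took means of 0.0351% to 0.0826%. All 8 windows from 60 kb outward together held 5.66% to 13.1% of the interval's reads, and the far window with Ighd3-1 took 0.0523% (0.00832% to 0.102%). From 86.9% to 94.3% of interval reads therefore lay between the near edge and the end of the Ighd1-1 window.

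Within the cluster the level rose and fell with no single slope. The window of Ighd3-2, Ighd5-6 and Ighd2-8 (20 to 25 kb) took 0.271%, that of Ighd5-5 (25 to 30 kb) 0.354%, and that of Ighd2-7, Ighd5-8 and Ighd5-4 (30 to 35 kb) 0.801%, the highest mean outside the pair around Ighd1-1. The windows of Ighd2-6, Ighd5-7 and Ighd5-3 (35 to 40 kb) and of Ighd6-2 and Ighd2-3 (45 to 50 kb) took 0.576% and 0.607%. Between them the window of Ighd2-5, Ighd5-2 and Ighd2-4 (40 to 45 kb) took 0.149%, with 6 listed ends. The number of listed ends differed from 4 to 26 per window. Per listed end, the Ighd6-1 window was highest (0.111% per end), before those at 35 to 40 kb (0.0960%), 30 to 35 kb (0.0801%) and Ighd1-1 (0.0724%). This order differed between the library sets, since the 35 to 40 kb window holds the end at 113462320: per end it had 0.136% in the second set, the highest of the 19 windows, and 0.0559% in the first, the fourth. The 70 to 75 kb window was also low by this measure (0.00237% per end), and 85 to 90 kb was lower still (0.00193%).

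A few ends carried much of the signal: the 6 highest held 31.2% to 49.1% of interval reads, and each was read in all 12 libraries with counts and covered in all 6 LPS libraries. The highest mean was at 113483588 (57.6 kb, 0.758%), followed by 113476893 (50.9 kb, 0.691%), 113483838 (57.8 kb, 0.510%), 113459530 (33.5 kb, 0.353%), 113472435 (46.4 kb, 0.306%) and 113479781 (53.8 kb, 0.229%). The same 6 ends were the highest in the first library set. In the second set the end at 113462320 was the fourth (0.452%), and the end in Ighd1-1 (0.240%) also stood above that at 113479781 (0.230%). None of the 6 overlapped a gene: those at 57.6 and 57.8 kb lay past Ighd1-1 on its VH side, and those at 50.9 and 53.8 kb lay before it in the Ighd6-1 window. At 113483588, LPS + IL4 libraries of the mutant had 0.843%, 0.903% and 1.02% in replicates 1 to 3, and resting mutant libraries had 0.636%, 0.587% and 0.726%. In WT cells the same end had 0.671%, 0.798% and 1.02% with LPS + IL4 and 0.644%, 0.367% and 0.882% at rest. The groups did not overlap in the mutant and overlapped in WT, and edgeR called no single end of the interval in any comparison (below).

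Of the 9 DH segments 5 had a listed end within them, and none of the 9 pseudogene segments had one. The end in Ighd1-1 (113482179) had a mean of 0.188% with a range of 0.0479% to 0.291%, and those in Ighd2-3 (0.0609%), Ighd2-4 (0.0354%), Ighd2-7 (0.0126%) and Ighd2-8 (0.00975%) were lower. In all 4 of these Ighd2 segments the end began at the same offset, 3 bp from the lower coordinate of the segment. The Ighd2 segments are near copies of each other, and the sources used here do not say how reads matching several places were treated, so levels over this part of the cluster are uncertain. Adam6b held 8 listed ends, of which those at 113491437 (0.0924%) and 113490574 (0.0834%) carried nearly all of its reads. The end in Ighd1-1 was looked at after its values were seen: its means were 0.251% ± 0.0504 with LPS + IL4 and 0.173% ± 0.108 at rest in the mutant, and 0.242% ± 0.0346 and 0.0868% ± 0.0394 in WT (SD, n = 3 each). It was not called for activation in either genotype (log2 change 0.54 ± 0.50 in the mutant and 1.48 ± 0.51 in WT, estimate ± SE, edgeR quasi-likelihood test, adjusted p = 0.849 and 0.462).

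On activation the 2 windows next to the bait had lower shares in every library than at rest in the same genotype, whereas the Ighd1-1 window had higher mean shares. At 5 to 10 kb (chr12:113431025-113436024) the mutant LPS + IL4 libraries had 0.252%, 0.464% and 0.529% and the mutant resting libraries 0.760%, 0.774% and 0.867%. In WT cells the LPS + IL4 libraries had 0.191%, 0.146% and 0.337% and the resting libraries 0.460%, 0.461% and 0.611%. All activated libraries were below all resting libraries of their genotype. The window was called lower in WT (log2 change -1.18 ± 0.30, edgeR quasi-likelihood test, adjusted p = 0.0492) and did not pass in the mutant (-0.95 ± 0.29, adjusted p = 0.141). With the replicate number as a block the mutant window passed (-1.01, edgeR, adjusted p = 0.0203). Mutant libraries of equal number correlated only weakly (0.11 to 0.26, against at most 0.08 for other numbers). Mutant replicate 1 alone was in the first set, so number and set are partly mixed. The WT call was lost when any 1 of 5 of the 6 WT libraries was left out (edgeR, adjusted p = 0.0755 to 0.257). It was weakest without WT LPS + IL4 replicate 2 (-0.95, adjusted p = 0.257), the library whose growth protocol names anti-CD40. The call held only without WT LPS + IL4 replicate 3 (adjusted p = 0.00507).

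This window was the only 1 of the 19 that edgeR called for activation in WT, and none was called in the mutant. Over all 776 windows tested (up to 3 Mb away towards the VH segments and 1 Mb towards the constant genes), 2.06% were called in WT and 1.80% in the mutant. Among all windows, 0.773% were called lower in WT. At an unadjusted p under 0.05 there were 4 of 19 windows in the mutant and 4 in WT, against 11.2% and 10.6% of all windows. DESeq2 called 2 of 19 in each, against 5.67% of all windows in the mutant and 5.15% in WT. The change of the 19 windows had a median of -0.33 in each genotype, against 0.08 in the mutant and 0.09 in WT over all windows. It ranged from -2.22, at 70 to 75 kb, to 0.60 in the mutant and from -1.59, at 75 to 80 kb, to 0.48 in WT. Of the 19, 17 were lower with LPS + IL4 in the mutant and 15 in WT, against 46.5% and 46.9% of all windows. In both genotypes 15 were lower and 2 higher, and 2 had opposite signs. The share of all windows that were lower in both genotypes was not computed.

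Averaging the activation contrast over the genotypes, which was done after the values had been seen, gave 2 called windows of 19, both lower and both without a gene. Over all windows 4.64% were called in this contrast and 2.32% were called lower. The window at 5 to 10 kb fell by 1.07 on the log2 scale (SE 0.21, adjusted p = 0.00401, edgeR), to 0.478 of the resting level. The window at 10 to 15 kb had 0.0916%, 0.115% and 0.0892% in mutant LPS + IL4 libraries against 0.232%, 0.211% and 0.257% at rest, and 0.0458%, 0.0570% and 0.0776% in WT LPS + IL4 libraries against 0.255%, 0.136% and 0.104% at rest. It fell by 1.35 (SE 0.26, adjusted p = 0.00359, edgeR), to 0.392 of the resting level, with no overlap between conditions in either genotype. DESeq2 called 3 of the 19 in the average, against 8.12% of all windows. Both edgeR calls held when any 1 library was left out, but neither passed when each covered end was counted once in place of its reads (-0.57 and -0.62, adjusted p = 0.246 and 0.419). Within genotypes this second window did not pass (-1.24 in the mutant and -1.46 in WT, adjusted p = 0.115 and 0.0521).

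**Figure D2:**
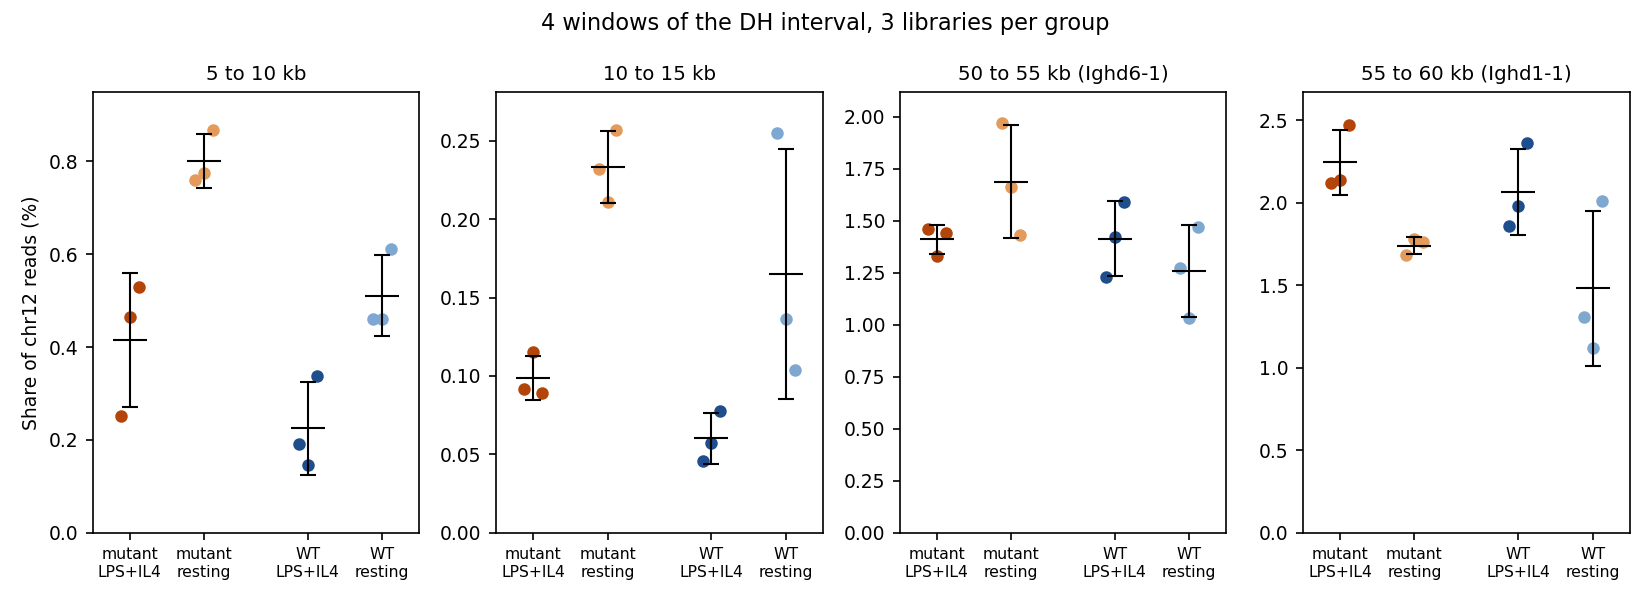
Share of chromosome 12 reads (%) in 4 windows of the DH interval for each of 12 libraries; bars give the mean and SD of 3 libraries per group. The windows at 5 to 10 kb and 10 to 15 kb are lower with LPS + IL4 than at rest with no overlap in either genotype, and the Ighd1-1 window is higher with no overlap in the mutant.

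On the constant region side of the bait, with LPS + IL4 over resting cells, the windows at 10 to 15 kb and 15 to 20 kb fell by 1.08 and 1.34 in the mutant and by 1.19 and 1.45 in WT (edgeR, adjusted p = 4.11e-07, 8.19e-07, 2.13e-07 and 2.67e-07), while the window at 5 to 10 kb did not pass (-0.33 in the mutant and -0.19 in WT, adjusted p = 0.200 and 0.660).

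In the Ighd1-1 window the mutant LPS + IL4 libraries had 2.12%, 2.14% and 2.47%, against 1.68%, 1.78% and 1.76% at rest. The WT LPS + IL4 libraries had 1.86%, 1.98% and 2.36%, against 1.31%, 1.12% and 2.01% at rest. The groups did not overlap in the mutant, and in WT the resting replicate 3 lay within the range of the activated libraries. The log2 change was 0.37 ± 0.17 in the mutant and 0.48 ± 0.17 in WT and passed in neither (edgeR, adjusted p = 0.416 and 0.250). Averaged over genotypes it was 0.43 ± 0.12 and missed the threshold (edgeR, adjusted p = 0.0532). This average passed with TMM factors (0.46, adjusted p = 0.0259), with library sizes taken within 1 Mb (0.43, adjusted p = 0.0329), with the library set as a block (0.44, adjusted p = 0.00888) and with DESeq2 (0.41, adjusted p = 0.0117). Without WT resting replicate 3 it passed in WT (0.77, adjusted p = 0.00264) and in the average (0.57, adjusted p = 0.000555). The sign turned in both genotypes when covered ends, relative to all covered chromosome 12 ends, replaced reads (-0.50 in the mutant and -0.42 in WT). Of the 26 listed ends a mean of 24.3 were covered with LPS + IL4 and 22.3 at rest in the mutant, and 24.7 and 25.0 in WT. In each group 85.9% to 96.2% of the window's ends were covered. Why the sign turned was not tested.

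The other windows did not pass in either genotype in the edgeR fit over all 12 libraries. The Ighd6-1 window had 1.46%, 1.33% and 1.44% in mutant LPS + IL4 libraries against 1.97%, 1.66% and 1.43% at rest (log2 change -0.26 ± 0.15), and 1.23%, 1.42% and 1.59% in WT LPS + IL4 libraries against 1.27%, 1.03% and 1.47% at rest (0.17 ± 0.15). The groups overlapped in both genotypes. The first window of the DH cluster, with Ighd3-2, had 0.191%, 0.195% and 0.193% with LPS + IL4 in the mutant against 0.454%, 0.334% and 0.380% at rest, which did not overlap, and its change of -1.01 ± 0.39 did not pass (edgeR, adjusted p = 0.303); fitted with the compared groups alone it passed (-1.01, adjusted p = 0.0447). In WT the same window overlapped between conditions (-0.57 ± 0.38, adjusted p = 0.776). The main Adam6b window had a change of -0.33 ± 0.29 in the mutant and -0.73 ± 0.29 in WT, without overlap in WT (edgeR, adjusted p = 0.886 and 0.338).

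**Figure D3:**
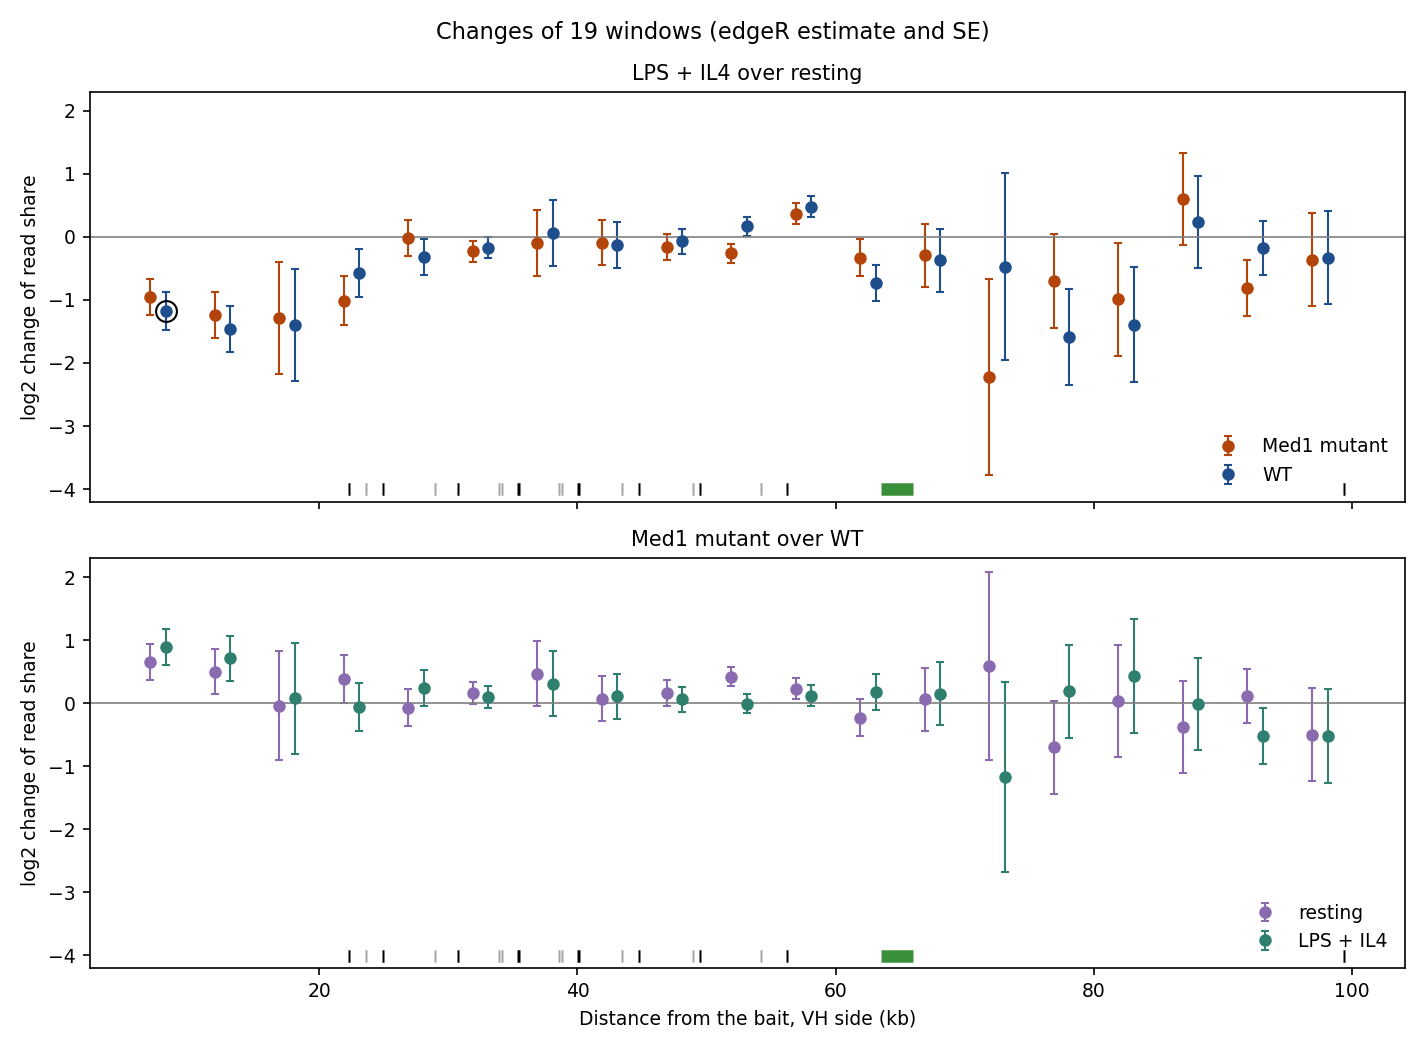
Log2 change (edgeR estimate and SE) of the read share of 19 windows against distance from the bait (kb), for LPS + IL4 over resting cells (top) and Med1 mutant over WT (bottom); the circle marks the 1 called window, and ticks mark DH segments (black), DH pseudogene segments (grey) and Adam6b (green). The windows from 5 to 20 kb lie below 0 on activation in both genotypes, and errors are widest at 70 to 75 kb.

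The interval's reads were also distributed differently between its parts. The 3 windows without genes next to the bait (5 to 20 kb) held 7.19% ± 1.68 of interval reads with LPS + IL4 and 13.1% ± 1.42 at rest in the mutant, and 4.43% ± 1.24 with LPS + IL4 and 10.6% ± 0.638 at rest in WT (SD, n = 3 each). The 8 windows of the DH cluster from 20 to 60 kb held 86.1% ± 0.634 with LPS + IL4 and 79.1% ± 2.88 at rest in the mutant, and 88.0% ± 0.549 with LPS + IL4 and 78.7% ± 2.43 at rest in WT. The 8 windows beyond held 6.74% ± 1.16 with LPS + IL4 and 7.87% ± 1.49 at rest in the mutant, and 7.57% ± 1.66 with LPS + IL4 and 10.7% ± 2.15 at rest in WT. These shares sum to the whole within each library, so they are given without a test.

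The interval as a whole was not called for activation. It held 6.84%, 7.41% and 7.91% of chromosome 12 reads in mutant LPS + IL4 libraries and 8.07%, 8.55% and 8.37% in mutant resting libraries, which did not overlap. In WT it held 6.0%, 6.22% and 7.97% with LPS + IL4 and 6.73%, 6.05% and 8.01% at rest, which overlapped. Among 41 tiles of 95 kb it was called in neither genotype (log2 change -0.17 in the mutant and -0.04 in WT, edgeR, adjusted p = 0.350 and 0.793), where 7.32% and 17.1% of tiles were called. Counted as covered ends in place of reads it was lower with LPS + IL4 in both (-0.50 and -0.46, adjusted p = 0.00485 and 0.0117). Over both genotypes the log2 share of reads differed by -0.11 (exact permutation test within genotype, two-sided, 400 arrangements, p = 0.240, adjusted p = 0.300 over 5 such tests).

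Set against the other side of the bait at the same distance, the interval had a higher ratio of reads on activation. Its own mean share was lower with LPS + IL4 than at rest in both genotypes (7.38% and 8.33% in the mutant, 6.73% and 6.93% in WT). The ratio of reads 5 to 100 kb on the VH side over reads 5 to 100 kb on the constant region side was 0.522, 0.608 and 0.663 in mutant LPS + IL4 libraries and 0.396, 0.459 and 0.423 in mutant resting libraries. In WT it was 0.418, 0.432 and 0.598 with LPS + IL4 and 0.317, 0.283 and 0.372 at rest. Activated and resting libraries did not overlap in either genotype. The log2 difference was 0.53 (exact permutation test, two-sided, p = 0.00500, the smallest that 400 arrangements allow; adjusted p = 0.0250 over 5 tests). The share of the constant region side itself was 12.4% ± 0.622 with LPS + IL4 and 19.6% ± 0.878 at rest in the mutant, and 14% ± 0.593 with LPS + IL4 and 21.4% ± 0.163 at rest in WT. In the mutant the log2 difference was 0.40 within the first set (1 library per condition) and 0.53 within the second (2 per condition). In WT it was 0.51 within the first set (2 per condition) and 0.68 within the second (1 per condition). With the reads of each end capped at the library's 99th percentile the difference over both genotypes was 0.01 (exact permutation test, p = 0.895), so it rested on the ends with the most reads.

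**Figure D4:**
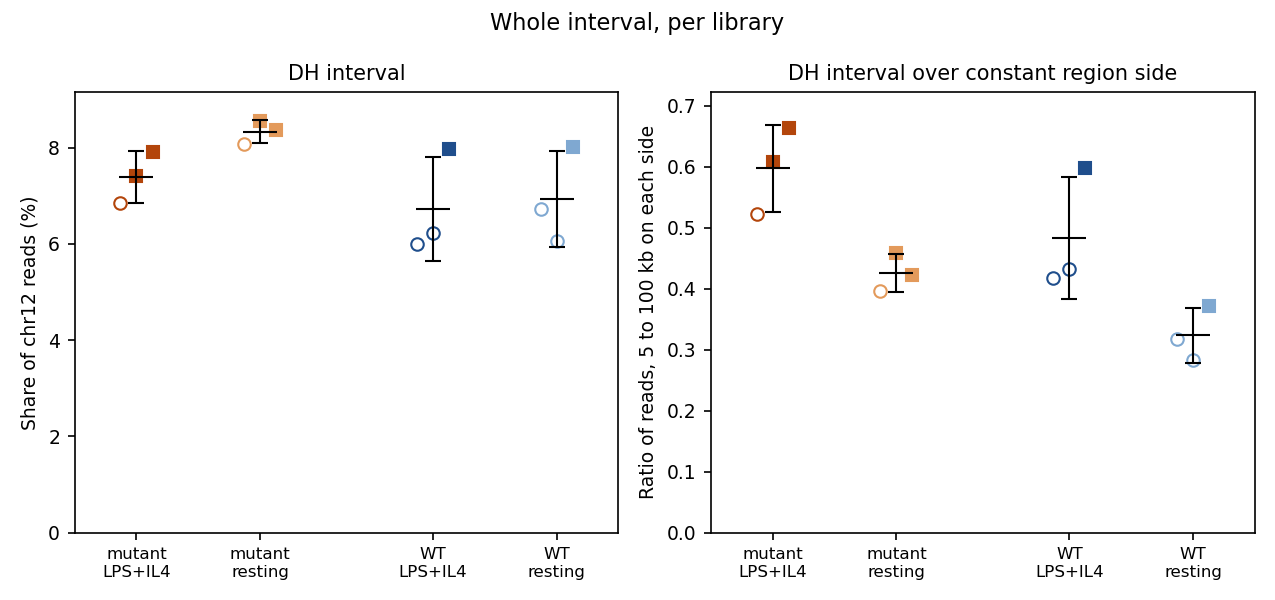
Share of chromosome 12 reads in the DH interval (left, %) and the ratio of its reads to those 5 to 100 kb from the bait on the constant region side (right), per library, with mean and SD of 3 libraries per group; open circles are the first library set and filled squares the second. The ratio is higher with LPS + IL4 than at rest without overlap in both genotypes, and in each group the first set lies below the second.

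Between genotypes the interval had higher mean shares in the Med1 mutant, and the difference passed in no comparison of the edgeR fit. At rest the interval held 8.33% ± 0.243 in the mutant and 6.93% ± 0.998 in WT, and with LPS + IL4 it held 7.38% ± 0.534 in the mutant and 6.73% ± 1.08 in WT (SD, n = 3 each). The resting groups did not overlap, and the LPS + IL4 groups did. The log2 difference over both conditions was 0.21 (exact permutation test within conditions, two-sided, p = 0.0550; adjusted p = 0.0917 over 5 tests). Within the first set, with 1 mutant and 2 WT libraries per condition, it was 0.34 at rest and 0.16 with LPS + IL4. Within the second set, with 2 mutant libraries and 1 WT library per condition, it was 0.08 and -0.06. As a tile it was not called at rest (0.27 ± 0.12, edgeR, adjusted p = 0.255) or with LPS + IL4 (0.13 ± 0.12, adjusted p = 0.461), where 0% of the 41 tiles were called. DESeq2 with its own size factors called it in both (0.44 and 0.37, adjusted p = 0.0487 and 0.0494), where it called 2.44% and 14.6% of tiles. Averaged over both conditions the tile was not called (0.20 ± 0.08, edgeR, adjusted p = 0.101, with 4.88% of tiles called), but it passed without WT resting replicate 3 (0.26, adjusted p = 0.0483) and without WT LPS + IL4 replicate 3 (0.27, adjusted p = 0.0313), the WT libraries of the second set.

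The ratio to the constant region side also had higher means in the mutant, and after adjustment the difference did not fall below the threshold of 0.05. The log2 difference was 0.36 over both conditions (exact permutation test, two-sided, p = 0.0200; adjusted p = 0.050 over 5 tests), with no overlap at rest and overlap with LPS + IL4. Within the first set (1 mutant and 2 WT libraries per condition) it was 0.40 at rest and 0.30 with LPS + IL4. Within the second set (2 mutant libraries and 1 WT library per condition) it was 0.24 and 0.09.

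No window of the interval was called for genotype by edgeR, at rest, with LPS + IL4 or in the average over both, and 0% of the 776 windows were. At an unadjusted p under 0.05 there were 2 of 19 windows at rest, 1 with LPS + IL4 and 2 in the average, against 9.15%, 2.96% and 9.02% of all windows. DESeq2 called 0, 0 and 1 of the 19, against 3.74%, 0% and 2.84% of all windows. The median change of the 19 windows was 0.11 at rest and 0.11 with LPS + IL4, against -0.20 and -0.17 over all windows; with DESeq2's size factors the median over all windows moved to -0.08 and -0.03. The window at 5 to 10 kb had the largest difference among the windows past an unadjusted 0.05: 0.65 ± 0.29 at rest, without overlap, and 0.89 ± 0.29 with LPS + IL4, with overlap (edgeR, adjusted p = 0.509 and 0.997). Averaged over both conditions it was 0.77 ± 0.21 (adjusted p = 0.353), and it was called by DESeq2 (0.89, adjusted p = 0.00415) and without WT LPS + IL4 replicate 3 (0.97, adjusted p = 0.0384). This window holds 4 of the 16 ends picked as read in 1 library set, and without such ends the averaged difference was 0.42 (edgeR, adjusted p = 0.455). With the library set as a block the averaged difference was 0.58 (edgeR, adjusted p = 0.308). The Ighd1-1 window differed by 0.23 ± 0.17 at rest and 0.12 ± 0.17 with LPS + IL4, and the Ighd6-1 window by 0.42 ± 0.15 and -0.01 ± 0.15; neither passed (edgeR, adjusted p = 0.503 to 0.997).

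Whether activation acted differently in the mutant was tested as an interaction. None of the 19 windows was called, nor any of the 776 (0%), and none of the 19 was below an unadjusted p of 0.05, against 4.25% of all windows. DESeq2 called 0 of the 19, against 0.902% of all windows, and the lowest adjusted p of edgeR was 0.984. At 5 to 10 kb the difference of the log2 changes was 0.24 ± 0.41 (SE), at 10 to 15 kb 0.21 ± 0.51 and at Ighd1-1 -0.11 ± 0.24. Each of these errors was larger than the difference beside it. For the whole interval the interaction was -0.13 ± 0.16 (adjusted p = 0.970), with 0% of tiles called.

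Single ends were tested in the same way. Of the 244 ends 180 had a mean of at least 10 reads and were tested among 5318, and none of the 180 was called by edgeR in any of the 7 comparisons, where the background was 0.320% for activation in the mutant, 0.376% in WT, 0.790% in their average and 0% for the 4 others. At an unadjusted p under 0.05 there were 9 of the 180 for activation in the mutant and 9 in WT, against 7.45% and 7.92% of all ends, and 14 in their average, against 12.7%. For genotype there were 7 at rest, 3 with LPS + IL4 and 2 in the average, against 8.10%, 4.51% and 9.03%, and for the interaction 6, against 8.14%. DESeq2 called 2 of the 180 for activation in the mutant, 2 in WT and 8 in the average, against 6.07%, 5.17% and 8.78% of all ends. For genotype it called 3 at rest, 2 with LPS + IL4 and 5 in the average, against 7.09%, 2.56% and 6.43%, and for the interaction 4, against 6.13%. Each of these DESeq2 counts was a smaller share of the 180 than of all ends. The smallest adjusted p for activation in WT was at 113483838, past Ighd1-1, with a log2 change of 0.56 ± 0.18 (adjusted p = 0.462).

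After LPS alone the DH interval was again covered in both genotypes, and most fully around the DH cluster. Med1 mutant libraries covered 145, 155 and 127 of the 244 ends, and WT libraries covered 176, 144 and 160. As a share of each library's covered chromosome 12 ends this was 1.86% ± 0.122 in the mutant and 1.75% ± 0.189 in WT (SD, n = 3 each), and the groups overlapped. The tile was not called (log2 difference 0.10 ± 0.11, limma, adjusted p = 0.978; 0% of 41 tiles called). In 3 conditions the covered share differed by 0.07 between genotypes (exact permutation test, two-sided, 8000 arrangements, p = 0.303; adjusted p = 0.303 over 5 tests).

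By window, the Ighd1-1 window had 23, 22 and 20 of 26 ends covered in the mutant and 24, 23 and 23 in WT. The window of Ighd2-5, Ighd5-2 and Ighd2-4 had all 6 ends covered in all 6 libraries. Nearest to the bait, at 5 to 10 kb, 13, 15 and 7 of 21 ends were covered in the mutant and 12, 12 and 15 in WT. At the far end, in the window with Ighd3-1, 0, 4 and 4 of 12 ends were covered in the mutant and 6, 3 and 5 in WT. Of the 19 windows 15 had at least 3 covered ends on average and were tested among 460. None was called by limma (0% of the 460; none of the 15 had an unadjusted p under 0.05), and the largest difference, at the Ighd3-1 window, was -0.65 ± 0.53 (adjusted p = 0.965). The LPS libraries covered 11 to 15 of the 16 ends picked as read in 1 set of the other libraries. These libraries were deposited apart and mapped with another program, so LPS alone and the deposit cannot be told apart and no comparison with the other cultures was made.

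**Figure D5:**
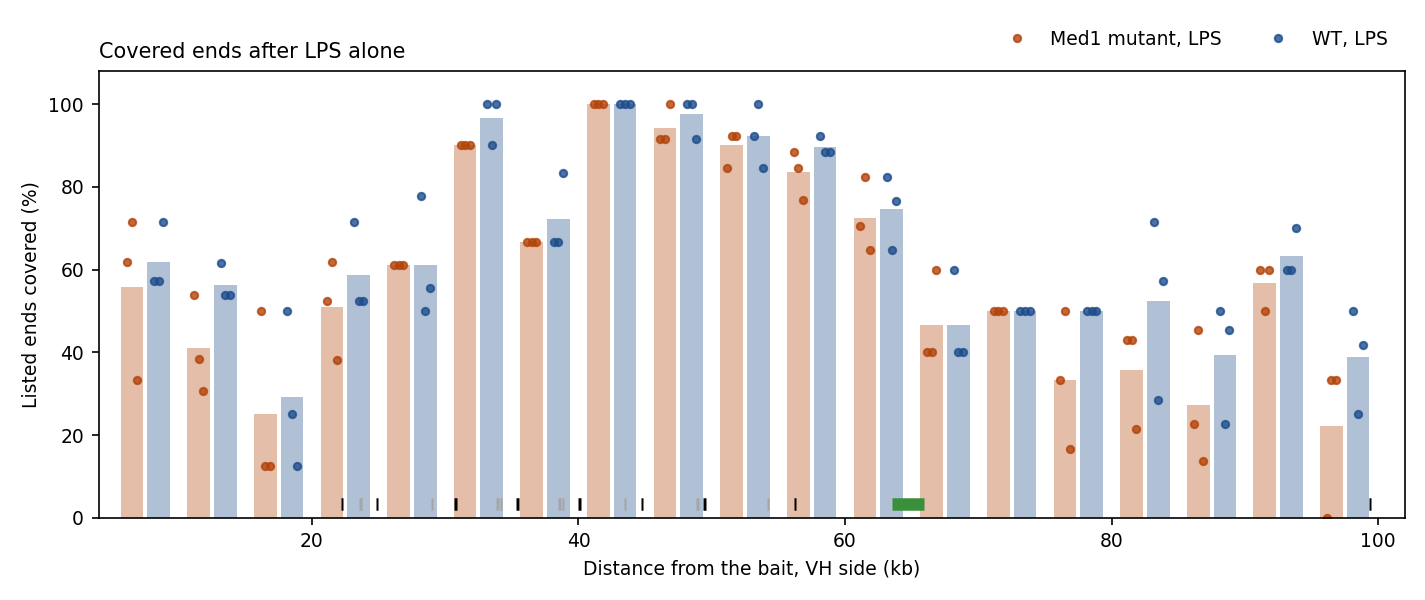
Share of the listed ends that were covered (%) in each of 19 windows after LPS alone, against distance from the bait (kb); bars are means of 3 libraries and points single libraries, Med1 mutant on the left and WT on the right of each pair; ticks mark DH segments (black), DH pseudogene segments (grey) and Adam6b (green). Coverage is highest from 30 to 60 kb, except at 35 to 40 kb, and the genotypes overlap in all windows named.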

How the data were processed

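4C-seq of 18 splenic B cell samples was analysed, prepared with DpnII as primary and Csp6I as secondary enzyme, per the labels' protocols. Mapping was to mm10 with Bowtie (12 resting and LPS + IL4 libraries) or Bowtie2 (6 LPS libraries), per the submitters' processing notes; parameters and filters are not given in the sources used here. For the 12, the deposited values are raw read counts at fragment ends, as whole numbers, and only ends with a read appear. The 6 deposited LPS files list covered ends with no value. Files held no duplicated end. Reads carry no molecular identifiers.

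The interval, its windows and the gene lists were chosen with earlier results of these data known. All 19 windows are accounted for; named with values are called windows, the 3 highest, windows with a RefSeq gene, and the 6 highest ends. Counts were summed in 5 kb windows (776), 95 kb tiles (41) and single ends (5318), each with a mean of at least 10 reads. They were fitted with edgeR 4.0.16 (quasi-likelihood, robust, group means over all 12 libraries) in R 4.3.3. Library size was the chromosome 12 reads over 5 kb from the bait. Tests were two-sided, and Benjamini-Hochberg adjustment ran over each whole table with a threshold of 0.05. For LPS libraries limma 3.58.1 was fitted to log2 shares (covered ends plus a pseudocount of 1). Values of 1 per library were tested by exact permutation within strata. Deviations from group means correlated weakly between mutant resting and LPS + IL4 libraries of equal replicate number (0.11 to 0.26, against at most 0.08 for other numbers). They did not in WT (0.02 to 0.05) or between genotypes (-0.06 to 0.04).

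Ends read in 1 library set were those where at least 5 of 6 libraries of 1 set had 50 reads or more and all 6 of the other had fewer. Alternatives were TMM factors, other library sizes, DESeq2 1.42.0, no filter, covered ends, capped reads, only the compared groups, the replicate block, the library set as a block, ends of 1 set left out, 10 kb windows and each library left out. Averaged contrasts were added after the data were examined. The fits for activation in WT were tested on simulated data. With a log2 difference of 1 put in, 1.49% of 5 kb windows, 67.5% of tiles and 0% of single ends were called. With a difference of 2 put in, the values were 11.6%, 100% and 0.505%. With none put in, they were 0%, 2.41% and 0%. Most windows and single ends with such differences were therefore missed, so a window or end that was not called may still differ. These rates are for the whole tables (776 windows and 5318 ends) and were not computed for the interval alone. Its windows differed in precision. For activation in WT the SE was 0.15 at the Ighd6-1 window, 0.17 at the Ighd1-1 window and 1.49 at 70 to 75 kb. The rates therefore need not hold for a given window of the interval.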

Additional observations from a re-analysis of the deposited data

How the results depend on the processing

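Of the comparisons above, the averaged loss of contacts at 5 to 10 kb and 10 to 15 kb kept its direction in each alternative run on these 2 windows and its call in all but covered ends; it was not fitted with only the compared groups. Counts of called windows moved more. For activation in the mutant (0 of 19) DESeq2 called 2, against 5.67% of all windows, and 1 was called in each of 5 others. The 5 to 10 kb window was called with the replicate block, the library set as a block or without the ends of 1 set. These settings called 2.06%, 2.58% and 2.45% of all windows. The Ighd3-2 window was called with only the compared groups (1.83% of all windows), and 1 window of 10 kb was called (3.01%). For activation in WT (1 of 19) DESeq2, the replicate block and a library size without 10 kb around the bait gave 2. Over all windows these called 5.15%, 2.58% and 2.19%. Covered ends, capped reads and only the compared groups gave 0, against 0%, 0.902% and 1.57% of all windows. Leaving out single libraries gave 0 to 2, and where the count moved 1.55% to 2.19% of all windows were called. The averaged activation count (2) was 0 with covered ends (0% of all windows) and 1 with 10 kb windows (6.52%). It was 2 to 3 without single libraries, where 27 to 33 of the 776 windows were called. With the Ighd1-1 window added it was 3 in 5 settings. These were DESeq2, TMM factors, library sizes within 1 Mb, the library set as a block and the replicate block. Of the 776 windows they called 63, 35, 37, 36 and 32. The averaged genotype count (0) was 1 with DESeq2 (2.84% of all windows) and 0 to 1 without single libraries. It was 1 without WT LPS + IL4 replicate 3, where 0.258% of all windows were called. DESeq2 called single ends where edgeR called none: 2 and 2 for activation in the mutant and WT, 3 and 2 for genotype at rest and with LPS + IL4, 4 for the interaction, 8 for averaged activation and 5 for averaged genotype, of 180 each. Each was a smaller share than over all ends.

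The tile of the interval passed as lower on activation with capped reads in the mutant (-0.33) and the average (-0.31). With capped reads 8 and 18 of the 41 tiles were called. Relative to all covered chromosome 12 ends, its covered ends also passed as lower in the mutant (-0.50), WT (-0.46) and the average (-0.48). By covered ends 12, 7 and 16 of the 41 tiles were called. The tile passed as higher in the mutant than WT with DESeq2 at rest (0.44), with LPS + IL4 (0.37) and in the average (0.40). In the average it also passed with TMM factors (0.28) and the replicate block (0.21). Without single libraries the tile ranged from -0.18 to 0.07 for activation in WT, from -0.25 to 0.01 for the interaction and from 0.16 to 0.27 for averaged genotype. In the exact permutation tests the genotype difference in share was 0.15 without the ends of 1 set (exact p = 0.0450) and 0.16 to 0.27 without single libraries, passing without WT resting replicate 3 (exact p = 0.030) or WT LPS + IL4 replicate 3 (exact p = 0.00500). The activation difference was -0.31 with capped reads (exact p = 0.0150) and -0.17 to -0.06 without single libraries, passing without WT LPS + IL4 replicate 3 (-0.17, exact p = 0.0450). The activation difference of the side ratio was 0.01 with capped reads. With the replicate block, which WT numbers do not bear out as pairs, the Ighd1-1 window passed for activation in WT (0.52, edgeR, adjusted p = 0.0275) and in the average (0.44, adjusted p = 0.00394). Beyond these and the cases named, the block changed no other call.

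Signs turned mainly with covered ends, taken relative to all covered chromosome 12 ends, or with capped reads, in results that had not passed. With covered ends the Ighd1-1 window changed by -0.50 (activation, mutant), -0.42 (activation, WT), -0.46 (averaged activation), -0.02 (genotype at rest) and -0.10 (genotype with LPS + IL4), the Ighd6-1 window by -0.35 (activation, WT) and -0.01 (genotype at rest), and the interactions at 5 to 10 kb and 10 to 15 kb by -0.10 and -0.32. With capped reads the Ighd1-1 window changed by -0.05 (activation, mutant) and -0.02 (genotype with LPS + IL4) and the Ighd6-1 window by -0.17 (activation, WT) and 0.05 (genotype with LPS + IL4). The last was also 0.16 with TMM factors, 0.13 with DESeq2 and -0.10 to 0.09 without single libraries. Leaving out single libraries also turned the interactions at 10 to 15 kb (-0.25 to 0.46) and at Ighd1-1 (-0.40 to 0.05). The cause of these shifts was not tested. The number of libraries, PCR copies counted as reads and the 16 ends tied to library sets limit what windows of 5 kb can show.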
